A study of Mus musculus with 12 samples.

Results

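The 10 genes described here encode the MHC class II presentation machinery of the mouse. H2-Aa and H2-Ab1 encode the alpha and beta chains of the I-A molecule, and H2-Eb1 the beta chain of I-E. Cd74 encodes the invariant chain, H2-DMa, H2-DMb1 and H2-DMb2 the chains of the peptide editor H2-DM, H2-Oa and H2-Ob those of its inhibitor H2-O, and Ciita the transcriptional coactivator of the class. They were taken by name, as the rows of the deposited tables bearing these names. They are 10 of the 32792 genes in the deposited table of length-scaled expression (TPM), and all 10 had enough reads to be tested among 14142 genes.

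RNA was sequenced from 12 MC38/hPD-L1 tumors, in groups of 4 treated with ALPN-202, with durvalumab, an antibody to human PD-L1 (anti-PD-L1), or with an Fc control. ALPN-202 is a variant CD80 domain fused to Fc that binds PD-L1, CD28 and CTLA-4. MC38 is a colon carcinoma line of C57BL/6 origin, here transduced with human PD-L1, since the mouse protein is not bound by ALPN-202, and the hosts were female C57BL/6NJ mice of 8 to 10 weeks. A single dose of 100 µg ALPN-202, 100 µg anti-PD-L1 or 75 µg Fc control was given on day 8, 72 h before collection. The comparisons set the tumor transcriptome with ALPN-202 against that with an antibody to the transduced human PD-L1 and against that with Fc control. ALPN-202 also binds CD28 and CTLA-4, so costimulation is not the only difference from the antibody. The paper states that ALPN-202 leaves the binding of mouse PD-1 to mouse PD-L1 unblocked. Nothing in the labels ties tumors of different groups to each other, and p-values measure the spread between tumors.

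Total counts were 3988266 to 10692817 per tumor. ALPN-202 tumor 4 and Fc control tumor 1 stood apart, with 5.20% and 3.19% of counts in ribosomal protein genes, against 1.22% to 1.78% in the other 10 tumors, and with short transcripts high and long transcripts low. Values without these 2 tumors are given beside the results below. Adipocyte markers were high in 4 tumors, at 1938 summed TPM in ALPN-202 tumor 4, 14676 and 3550 in anti-PD-L1 tumors 2 and 4 and 2238 in Fc control tumor 4, against 95.2 to 305 in the other 8. The 10 markers of colon epithelium, the origin of the line, were high in the same 4, at 52.1 summed TPM in ALPN-202 tumor 4, 1059 and 228 in anti-PD-L1 tumors 2 and 4 and 108 in Fc control tumor 4, against 6.68 to 15.6 in the other 8. Most of the 1059 TPM came from the keratins, with 382 TPM of Krt19, 376 of Krt18 and 213 of Krt8, whereas Cdh1 was at 1.72 to 28.6 TPM in every tumor, Vil1 at most 0.213, and Cdx2 had 0 counts in all 12.

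MHC class II molecules display peptides from endocytosed proteins to CD4+ T cells. In the endoplasmic reticulum the alpha and beta chains assemble around the invariant chain, which directs them to endosomes and is then cut down to a fragment in the groove. H2-DM exchanges that fragment for antigenic peptides, and H2-O restrains H2-DM, chiefly in B cells. Dendritic cells, B cells and macrophages carry the molecules constitutively or after IFNγ, through CIITA, which docks onto RFX and NF-Y bound at the X and Y boxes of the promoters.

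Of the 10 genes, 8 lie on chromosome 17, in 223.9 kb of build NCBIM37 (GENCODE M1), whereas Ciita lies at chr16:10480237-10527657 (+). Along chromosome 17 the order is H2-Oa (chr17:34229285-34232179, +), H2-DMa (chr17:34272127-34276046, +), H2-DMb2 (chr17:34280252-34288498, +), H2-DMb1 (chr17:34290017-34297168, +), H2-Ob (chr17:34375848-34390850, +), H2-Ab1 (chr17:34400154-34406363, +), H2-Aa (chr17:34406276-34424772, −) and H2-Eb1 (chr17:34442828-34453144, +). They are annotated as protein coding. H2-Ab1 and H2-Aa overlap at their 3′ ends on opposite strands, and the strand setting of the counting is not given in the sources used here, so reads in that overlap cannot be assigned between them. H2-DMb1 and H2-DMb2 are near copies, with 754 of 786 coding bases identical (95.9%), and 43.5% of the 58-base windows of H2-DMb1 occur unchanged in H2-DMb2, the read length of the libraries being 58 bases. The split of counts between these 2 genes is therefore uncertain.

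The promoters were searched for the letters of these boxes. RefSeq promoters (GRCm38.p6, 250 bases before and 50 after the start) were matched for 7 of the 10 genes, as 8 sequences. H2-Ab1 and Ciita were not matched, and Cd74 was left out of these sequences by a filter on its chromosome. Both strands were searched for ATTGG, the core of the Y box, and AGNAACNG, a core of the X box. The first was found in 7 of the 8 promoters, against 37.4% of all 32851 promoters of this length, and the second in 3 of the 8, against 17.4%. The X core followed after 15 to 35 bases by the Y core on the same strand was found in 2 of the 8, those of H2-DMb1 and H2-Eb1, against 0.329% of all promoters. Both stretches are shown because they display the shared arrangement, with the 2 cores in capitals and everything else in lower case and gaps of 26 bases in H2-DMb1 (chr17:34153084-34153146, +) and 25 bases in H2-Eb1 (chr17:34305763-34305824, +). These are matches of letters and not measured binding sites.
H2-DMb1: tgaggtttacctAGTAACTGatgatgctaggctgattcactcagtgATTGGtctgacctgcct
H2-Eb1: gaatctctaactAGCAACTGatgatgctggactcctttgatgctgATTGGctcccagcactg

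Class II transcripts were among the most abundant of the tumors. Cd74, the gene outside both of these chromosomes, lies at chr18:60963502-60972300 (+, NCBIM37) and is protein coding. By mean TPM over all 12 tumors, Cd74 ranked 14 of all genes at 3257, H2-Ab1 ranked 40 at 1877, H2-Aa ranked 49 at 1692 and H2-Eb1 ranked 67 at 1328. H2-DMa (162 TPM) and H2-DMb1 (143 TPM) lay about an order of magnitude lower. Ciita (11.4 TPM), H2-DMb2 (6.60), H2-Oa (2.41) and H2-Ob (2.23) were low. The sum of H2-Aa, H2-Ab1, H2-Eb1 and Cd74 was 0.561% to 1.70% of all TPM in ALPN-202 tumors, 0.328% to 0.754% in anti-PD-L1 tumors and 0.374% to 0.978% in Fc control tumors. H2-Ea-ps, the inactive alpha chain gene of I-E in the C57BL/6 haplotype, was listed at 0 in every tumor. Psmb9, an immunoproteasome gene of the same locus, was listed at 0 in every tumor too, beside 488 to 755 TPM of its neighbour Psmb8, and the part of annotation and counting in these zeros was not tested.

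**Figure D1:**
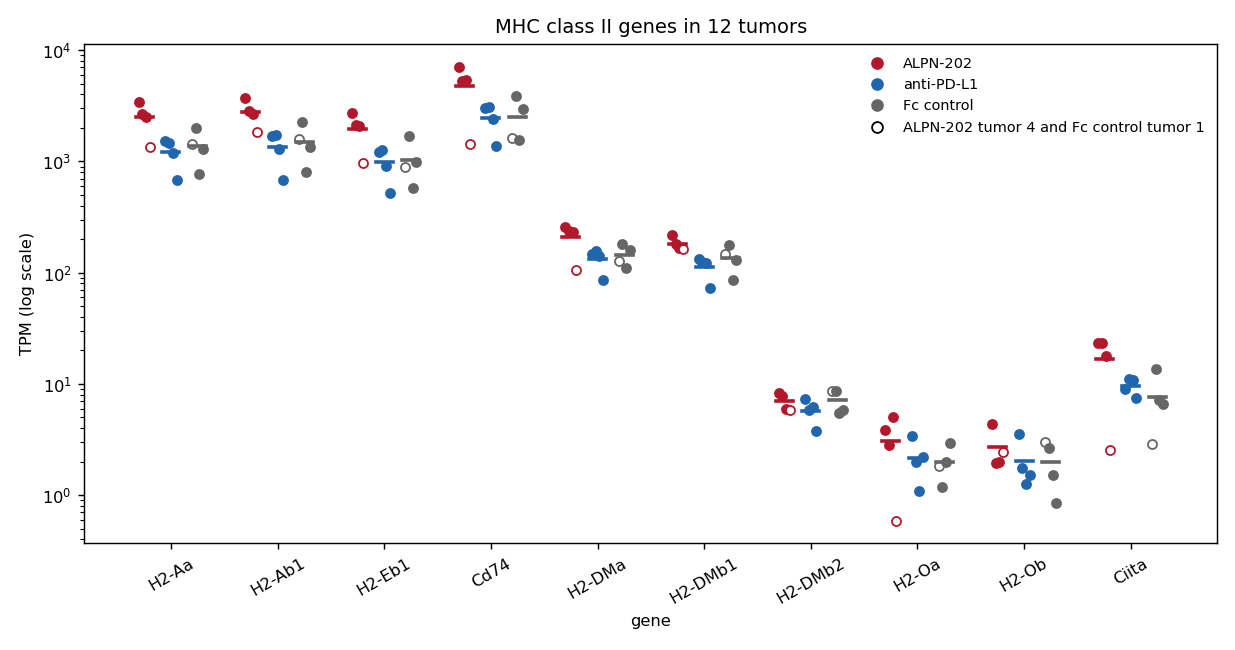
TPM of the 10 genes in each tumor on a log axis, with ALPN-202, anti-PD-L1 and Fc control tumors side by side for each gene and bars at the group means (n = 4 each). Open circles are ALPN-202 tumor 4 and Fc control tumor 1, and 3 of the 4 ALPN-202 tumors lie above every Fc control tumor for 6 of the 10 genes, against 13.9% of all genes.

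ALPN-202 tumors carried the highest levels of the classical chains and the invariant chain, in 3 of their 4 tumors. H2-Ab1 had 3716, 2832, 2697 and 1857 TPM in ALPN-202 tumors, 1707, 1727, 1287 and 682 in anti-PD-L1 tumors and 1590, 2268, 811 and 1352 in Fc control tumors. ALPN-202 tumors 1 to 3 lay above all 8 other tumors, and tumor 4 lay above all anti-PD-L1 tumors and 3 of the Fc control tumors. The mean was 2775 ± 761 TPM with ALPN-202, 1350 ± 490 with anti-PD-L1 and 1505 ± 604 with Fc control (SD, n = 4 each).

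H2-Aa had 3422, 2683, 2532 and 1353 TPM in ALPN-202 tumors, 1523, 1453, 1181 and 678 in anti-PD-L1 tumors and 1421, 1981, 775 and 1296 in Fc control tumors. H2-Eb1 had 2725, 2115, 2061 and 971 TPM in ALPN-202 tumors, 1220, 1268, 913 and 524 in anti-PD-L1 tumors and 900, 1683, 580 and 983 in Fc control tumors. For both genes ALPN-202 tumors 1 to 3 were the highest of all 12, and ALPN-202 tumor 4 fell within the range of the other groups. Cd74 had 7111, 5281, 5358 and 1425 TPM in ALPN-202 tumors, 3037, 3087, 2396 and 1390 in anti-PD-L1 tumors and 1613, 3839, 1570 and 2974 in Fc control tumors. Here the break was wider, as ALPN-202 tumor 4 was next to the lowest of all tumors.

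Fold changes were taken from the edgeR quasi-likelihood fit, in which counts are scaled by library size and composition and p-values are adjusted over all 14142 genes, a gene passing at an adjusted p under 0.05. In ALPN-202 over Fc control, H2-Eb1 was 1.94-fold higher (log2 0.96 ± 0.38 SE, adjusted p = 0.448), Cd74 1.93-fold (adjusted p = 0.467), H2-Ab1 1.92-fold (adjusted p = 0.496) and H2-Aa 1.86-fold (adjusted p = 0.470). Over anti-PD-L1 the differences were larger in value, with H2-Ab1 2.49-fold higher (log2 1.31 ± 0.40, adjusted p = 0.330), H2-Aa 2.44-fold (adjusted p = 0.315), H2-Eb1 2.34-fold (adjusted p = 0.333) and Cd74 2.16-fold (adjusted p = 0.364). None passed. Without ALPN-202 tumor 4 and Fc control tumor 1 none of these 4 genes passed either, at log2 1.07 to 1.10 over Fc control and 1.22 to 1.28 over anti-PD-L1.

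The scale of the values decides whether the groups overlap. ALPN-202 tumor 4 had 2022 counts scaled to library size (CPM, with TMM factors) of H2-Ab1, against 1467 to 2089 in the other ALPN-202 tumors, whereas on TPM it was the lowest of the 4. On CPM, all 4 ALPN-202 tumors lay above all 4 Fc control tumors for H2-Aa, H2-Ab1, H2-Eb1 and H2-DMa, which is 4 of the 10 genes, against 2.67% of all genes tested (1.51% lay wholly below). On TPM this held for 0 of the 10, against 1.04% of all genes (3.38% lay wholly below). Transcripts of the 4 genes separated on CPM were short, at 0.38 to 0.53 of the length of the median gene. Short transcripts were high in ALPN-202 tumor 4 and Fc control tumor 1, and the part of length here was not tested. With an exact two-sided permutation test of mean TPM, whose smallest possible p is 0.0286, the difference over Fc control gave p = 0.0571 for H2-Ab1, 0.0857 for H2-Aa and H2-Eb1 and 0.200 for Cd74. Limma on log2(TPM + 1) moved the median of all genes by −0.16 in ALPN-202 over Fc control and by −0.31 in ALPN-202 over anti-PD-L1, relative to edgeR.

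**Figure D2:**
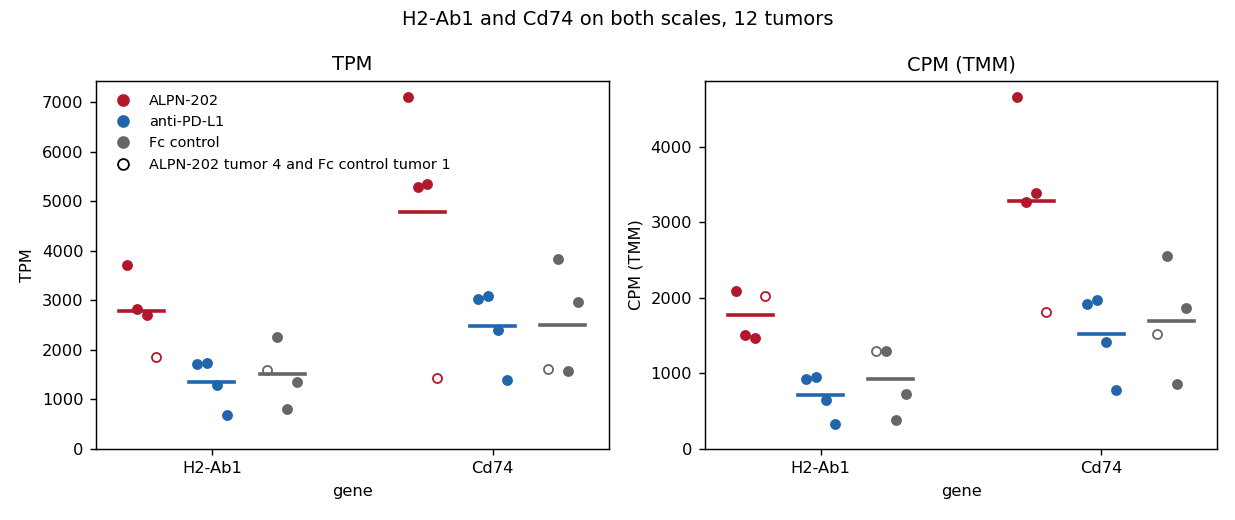
H2-Ab1 and Cd74 in each tumor as TPM (left) and as TMM-scaled CPM (right), with ALPN-202, anti-PD-L1 and Fc control side by side and bars at the group means (n = 4 each). The open ALPN-202 point, tumor 4, has 1857 TPM and 2022 CPM of H2-Ab1, and for this gene it lies within the Fc control range on TPM and above it on CPM.

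None of the 3 H2-DM genes, whose product loads the groove, passed the test. H2-DMa had 260, 237, 233 and 105 TPM in ALPN-202 tumors, 146, 157, 142 and 86.7 in anti-PD-L1 tumors and 128, 181, 111 and 159 in Fc control tumors. ALPN-202 tumors 1 to 3 were the highest of all 12 for this gene, and tumor 4 was below all Fc control tumors. The edgeR log2 difference was 0.58 ± 0.25 over Fc control (adjusted p = 0.520) and 0.89 ± 0.25 over anti-PD-L1 (adjusted p = 0.316).

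H2-DMb1, its partner chain, had 217, 181, 165 and 165 TPM in ALPN-202 tumors, 134, 125, 122 and 72.9 in anti-PD-L1 tumors and 146, 177, 86.1 and 129 in Fc control tumors. The ALPN-202 tumors all lay above the anti-PD-L1 tumors and overlapped the Fc control tumors. H2-DMb2, the near copy, had 8.19, 7.76, 5.99 and 5.88 TPM in ALPN-202 tumors, 7.25, 5.82, 6.18 and 3.79 in anti-PD-L1 tumors and 8.59, 8.57, 5.41 and 5.82 in Fc control tumors, and the 3 groups overlapped. Its difference over Fc control was close to 0 (log2 0.06 ± 0.36), and its sign turned negative with library size as the only scaling, with quality weights and on TPM.

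The H2-O genes lay near the limit of the depth, with 2 to 28 counts of H2-Oa and 10 to 39 of H2-Ob per tumor. H2-Oa had 3.85, 2.82, 5.05 and 0.590 TPM in ALPN-202 tumors, 3.38, 1.98, 1.09 and 2.19 in anti-PD-L1 tumors and 1.83, 1.19, 1.99 and 2.95 in Fc control tumors. H2-Ob had 4.33, 1.95, 2.00 and 2.45 TPM in ALPN-202 tumors, 3.57, 1.74, 1.26 and 1.51 in anti-PD-L1 tumors and 2.99, 2.65, 1.50 and 0.850 in Fc control tumors. Groups overlapped for both genes. The edgeR log2 difference of ALPN-202 over Fc control was 0.67 ± 0.46 for H2-Oa (adjusted p = 0.822) and 0.49 ± 0.56 for H2-Ob (adjusted p = 0.997). Neither passed, and the part of depth in this was not tested.

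Ciita, the coactivator on which transcription of the class depends, had the largest fold change over Fc control of the 10 genes in edgeR. It had 23.5, 23.5, 17.9 and 2.54 TPM in ALPN-202 tumors, 9.06, 11.2, 10.7 and 7.52 in anti-PD-L1 tumors and 2.88, 13.7, 7.17 and 6.61 in Fc control tumors. ALPN-202 tumors 1 to 3 held the 3 highest values of all tumors, and ALPN-202 tumor 4 and Fc control tumor 1 the 2 lowest. The difference was 2.25-fold over Fc control (log2 1.17 ± 0.45, adjusted p = 0.431) and 1.92-fold over anti-PD-L1 (log2 0.94 ± 0.45, adjusted p = 0.556). Without those 2 tumors Ciita passed in both comparisons, with log2 1.26 ± 0.30 over Fc control (edgeR adjusted p = 0.0336), where 5.47% of all genes were called higher, and log2 1.20 over anti-PD-L1 (adjusted p = 0.0356), where 4.5% were. It also passed over Fc control without ALPN-202 tumor 4 alone (log2 1.46, adjusted p = 0.0462). By contrast, none of the other 9 genes passed without those 2 tumors.

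Counted over the set, all 10 genes had a positive log2 difference in ALPN-202 over Fc control and in ALPN-202 over anti-PD-L1, except that over Fc control H2-DMb2 turned negative in several alternatives and H2-Ob in 1, without the 4 adipocyte-rich tumors. The median was 0.78 over Fc control, against 0.04 over all genes, and 0.99 over anti-PD-L1, against 0.07, and without ALPN-202 tumor 4 and Fc control tumor 1 the medians of the 10 were 1.02 and 1.05. edgeR called 0 of the 10 in either comparison, as it called 0% of all genes (background 0% in each), and 6 of the 10 had an unadjusted p under 0.05 over Fc control, where 7.2% of all genes were higher at that level and 1.98% lower. Over anti-PD-L1 6 of the 10 did too, against 6.82% of all genes higher and 2.47% lower. The 4 ALPN-202 tumors lay above the 4 anti-PD-L1 tumors on CPM for 5 of the 10, against 4.8% of all genes (2.75% lay wholly below), and on TPM for 2 of the 10, H2-Ab1 and H2-DMb1, against 1.38% (6.12% lay wholly below). DESeq2 called 0 of the 10 over Fc control, where it called 1.34% of genes higher, and 1 over anti-PD-L1, H2-Aa (adjusted p = 0.0479), where it called 1.12%. The 2 comparisons share the ALPN-202 tumors, and their counts are not independent of each other.

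**Figure D3:**
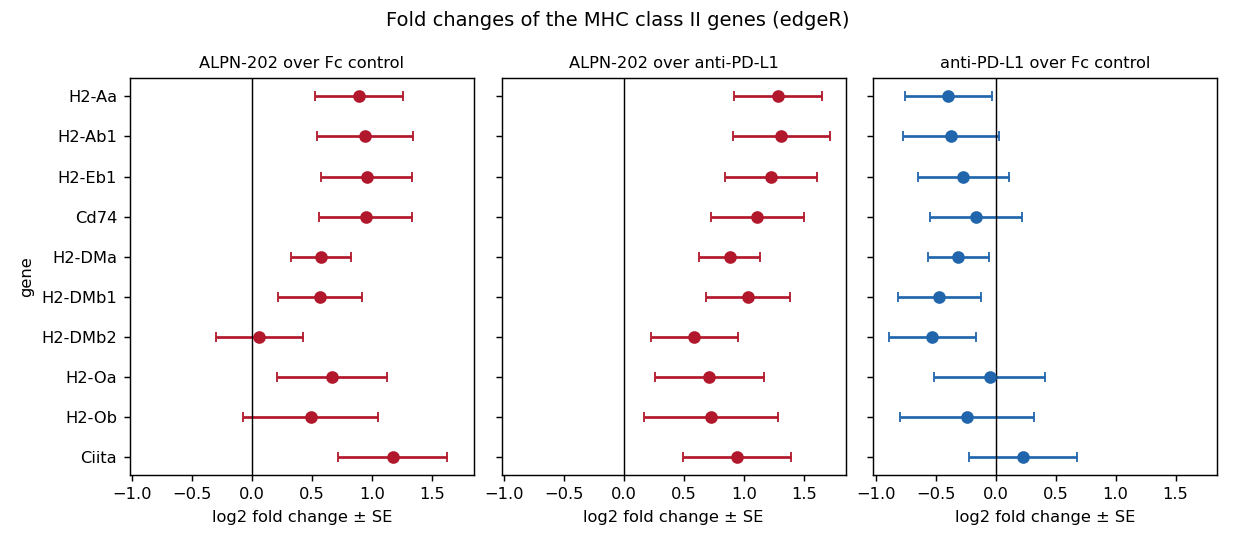
edgeR log2 fold changes of the 10 genes with their standard errors, for ALPN-202 over Fc control, ALPN-202 over anti-PD-L1 and anti-PD-L1 over Fc control. All 10 points are to the right of 0 in both ALPN-202 panels (H2-DMb2 and H2-Ob over Fc control change sign in some alternatives), and only Ciita is to the right of 0 in the third, where the signs of Ciita, Cd74, H2-Eb1, H2-Oa and H2-Ob also change in some alternatives.

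With the antibody to human PD-L1, none of the 10 genes passed a test against Fc control. In anti-PD-L1 over Fc control the log2 differences were −0.53 to 0.23 with a median of −0.29, against −0.03 over all genes, and without ALPN-202 tumor 4 and Fc control tumor 1 the median was −0.17. Ciita was the 1 gene of 10 with a positive value, 0.23 ± 0.45, and H2-DMb2 had the most negative, −0.53 ± 0.36. None of the 10 had an unadjusted p under 0.05 in edgeR or in DESeq2, where 1.44% of all genes were higher and 0.629% lower by edgeR, and 0% passed after adjustment. None was separated between the groups on CPM, against 1.08% of all genes wholly above and 1.53% wholly below, or on TPM, against 0.852% and 0.994%. The signs of H2-Oa, H2-Ob and Cd74 turned positive on TPM, those of H2-Oa and H2-Ob also without those 2 tumors, and that of Ciita turned negative with quality weights, so no direction is given for them.

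Within a tumor the classical genes kept close proportions. The ratio of H2-Aa to H2-Ab1 was 0.921, 0.947, 0.939 and 0.729 in ALPN-202 tumors, 0.892, 0.842, 0.917 and 0.995 in anti-PD-L1 tumors and 0.893, 0.874, 0.956 and 0.958 in Fc control tumors. The ratio of H2-Eb1 to H2-Ab1 was 0.710 to 0.768 in the 10 tumors outside ALPN-202 tumor 4 (0.523) and Fc control tumor 1 (0.566). The ratio of Cd74 to H2-Ab1 was 1.69 to 2.20 in those 10 tumors, 0.767 in ALPN-202 tumor 4 and 1.01 in Fc control tumor 1. The ratio of Ciita to H2-Ab1 was 0.00489 to 0.0110 in the 10, 0.00137 in ALPN-202 tumor 4 and 0.00181 in Fc control tumor 1. The same 2 tumors were low for the 3 last ratios, whatever their treatment.

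The ratio of H2-DMa to H2-Ab1 was 0.0699, 0.0836, 0.0865 and 0.0567 in ALPN-202 tumors, 0.0854, 0.0908, 0.110 and 0.127 in anti-PD-L1 tumors and 0.0805, 0.0797, 0.137 and 0.118 in Fc control tumors. It was lower in ALPN-202 tumors in mean, by a log2 difference of −0.48 from anti-PD-L1 tumors (exact permutation p = 0.0571) and −0.46 from Fc control tumors (exact permutation p = 0.171), and without ALPN-202 tumor 4 and Fc control tumor 1 these were −0.36 and −0.45. These were among 21 tests of 7 ratios in 3 comparisons, none of which gave a p under 0.05. H2-O to H2-DM, the inhibitor to its target, differed by −0.19 from anti-PD-L1 tumors and by −0.04 from Fc control tumors on the log2 scale (exact permutation p = 0.571 and p = 0.914). Without those 2 tumors the difference from anti-PD-L1 tumors was −0.08 and that from Fc control tumors turned to 0.16, so no direction is given.

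**Figure D4:**
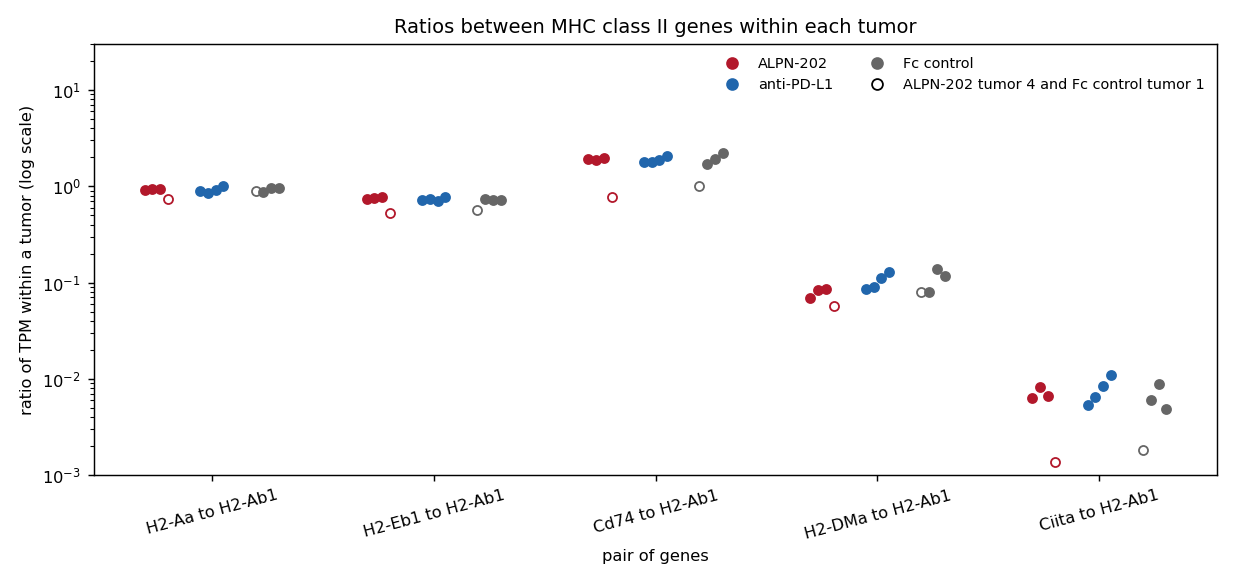
Ratios of TPM between genes within each tumor on a log axis, with ALPN-202, anti-PD-L1 and Fc control side by side. ALPN-202 tumor 4 and Fc control tumor 1 (open circles) have the lowest Cd74 to H2-Ab1 and Ciita to H2-Ab1 ratios, while the other 10 tumors stay within 1.69 to 2.20 and 0.00489 to 0.0110.

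The rest of the pathway was described through lists of regulators, processing enzymes, neighbours in the locus and receptors. Of 11 regulators measured, 6 had a positive log2 difference in ALPN-202 over Fc control (median 0.01) and none was called, although Irf8, a factor of dendritic cells and macrophages, was 0.88 ± 0.23 (adjusted p = 0.297). Over anti-PD-L1 Irf8 was 0.93 ± 0.23. It passed without ALPN-202 tumor 4 and Fc control tumor 1, at 1.06 over Fc control (edgeR adjusted p = 0.0224) and 1.00 over anti-PD-L1 (adjusted p = 0.0260). The RFX and NF-Y subunits, through which CIITA docks, had means close to each other, Rfx5 for instance at 10.4 ± 5.33 TPM in ALPN-202 tumors, 12.8 ± 2.09 in anti-PD-L1 tumors and 9.68 ± 3.68 in Fc control tumors (SD, n = 4 each). Irf4, a factor of dendritic cells and lymphocytes, had a log2 difference of 1.48 ± 0.62 in anti-PD-L1 over Fc control (adjusted p = 0.826) at means of 3.40 and 1.16 TPM.

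Of 10 processing genes measured, 8 were positive in ALPN-202 over Fc control (median 0.50) and 9 in ALPN-202 over anti-PD-L1 (median 0.68), with 4 and 7 at an unadjusted p under 0.05 and none called. Of all genes, 7.2% and 6.82% were higher at that level. Ctss, the protease that trims the invariant chain, had 3045 ± 1424 TPM in ALPN-202 tumors, 1827 ± 429 in anti-PD-L1 tumors and 1705 ± 311 in Fc control tumors (SD, n = 4 each). Its edgeR log2 difference was 0.83 ± 0.30 over Fc control (edgeR adjusted p = 0.4003) and 0.91 ± 0.30 over anti-PD-L1 (adjusted p = 0.333). Over anti-PD-L1, the thiol reductase Ifi30 was 0.73 ± 0.23, the protease Lgmn 0.71 ± 0.23, Ctsh 1.17 ± 0.40, Ctsb 0.63 ± 0.23, Ctsd 0.57 ± 0.25 and the protease inhibitor Cst3 0.64 ± 0.28. Over Fc control, Ctsd was 0.65 ± 0.26, Ctsb 0.61 ± 0.23 and Ifi30 0.52 ± 0.23. Without ALPN-202 tumor 4 and Fc control tumor 1, Ctss (1.11, edgeR adjusted p = 0.0324) and Ctsb (0.88, adjusted p = 0.0239) passed over Fc control. Over anti-PD-L1 Ctss (1.06, adjusted p = 0.0343), Ctsb (0.69, adjusted p = 0.0476) and Lgmn (0.79, adjusted p = 0.0394) passed then, and 7 of the 10 were positive in either comparison. Without those tumors 5.47% of all genes were called higher over Fc control and 4.5% over anti-PD-L1.

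Of 8 other genes of the locus, 4 had enough counts to be tested, and of these 3 were positive over Fc control and 2 over anti-PD-L1, with none at an unadjusted p under 0.05. The peptide transporter Tap1 was 0.38 ± 0.22 over Fc control and 0.32 ± 0.22 over anti-PD-L1, and the immunoproteasome subunit Psmb8 was 0.63 ± 0.34 over anti-PD-L1. The receptors of class II, Cd4 and Lag3, had 4.24 and 37.8 TPM in ALPN-202 tumors, 2.60 and 17.2 in anti-PD-L1 tumors and 2.34 and 15.5 in Fc control tumors. Over Fc control the log2 difference was 0.92 ± 0.38 for Cd4 (edgeR adjusted p = 0.473) and 1.32 ± 0.41 for Lag3 (adjusted p = 0.351), and over anti-PD-L1 it was 0.90 and 1.29. Without those 2 tumors Lag3 passed in both comparisons (1.43, adjusted p = 0.0499, and 1.50, adjusted p = 0.0380) and Cd4 in neither (0.97 and 0.99), and Psmb8 over anti-PD-L1 was 0.17.

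In bulk tumors fewer cells of a type and less RNA per cell cannot be told apart, so marker lists of cells that carry class II were set beside the genes. All 15 tested of 16 macrophage and monocyte markers had a positive log2 difference in ALPN-202 over Fc control (median 0.74), and 15 of 15 in ALPN-202 over anti-PD-L1 (median 0.89). Their summed TPM was 7642 to 14218 in ALPN-202 tumors, 4549 to 8146 in anti-PD-L1 tumors and 5729 to 8654 in Fc control tumors. All 10 tested of 12 conventional dendritic cell markers were positive over Fc control (median 1.02), with summed TPM of 100.5 to 325 in ALPN-202 tumors, 127 to 203 in anti-PD-L1 tumors and 109 to 191 in Fc control tumors. Clec9a, which marks cross-presenting dendritic cells, had 4.68, 5.47, 2.43 and 1.76 TPM in ALPN-202 tumors, above every anti-PD-L1 tumor (0.874 to 1.36) and every Fc control tumor (0.745 to 1.56). It rested on few reads, with 16 to 83 counts in ALPN-202 tumors, 13 to 20 in anti-PD-L1 tumors and 11 to 21 in Fc control tumors. On TPM 1.38% of all genes lay wholly above anti-PD-L1 tumors and 1.04% wholly above Fc control tumors. Without ALPN-202 tumor 4 and Fc control tumor 1, all 15 macrophage and monocyte markers were positive over Fc control (median 1.00), with 8 called. For the conventional dendritic cell markers the median was 1.06, with 9 of 10 positive and 3 called, Clec9a, Xcr1 and Irf8. In that fit 5.47% of all genes were called higher. The negative dendritic cell marker was Zbtb46 (−0.11), which was at 0.004 over Fc control with all 12 tumors. Over anti-PD-L1 with all 12 tumors, 9 of these 10 markers were positive (median 0.96), and Zbtb46 was at −0.06.

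The other lists of cells that carry class II were less uniform. Of 8 mature dendritic cell markers 7 were tested and 5 were positive over Fc control (median 0.50), while Fscn1 (−0.21) and Relb (−0.09) were negative. The list summed to 152 to 389 TPM in ALPN-202 tumors, 338 to 420 in anti-PD-L1 tumors and 188 to 455 in Fc control tumors. Most of each sum was Fscn1, at 95.3 to 291, 259 to 346 and 123 to 372 TPM in the same order. The sums therefore say little of the other markers in this list. Of 5 plasmacytoid dendritic cell markers 2 were tested, Cox6a2 and Pacsin1. The summed TPM was 116 to 203 in ALPN-202 tumors, 112 to 145 in anti-PD-L1 tumors and 142 to 191 in Fc control tumors. Siglech, another marker of these cells, was at most 1.28 TPM in any tumor, so the sum does not show that these cells were present. The groups overlapped for both lists. Of 11 B cell markers 3 were tested, and over Fc control all 3 were positive, Cd22 at 1.67 ± 0.43 (edgeR adjusted p = 0.297), Ighm at 1.03 ± 0.43 (adjusted p = 0.484) and Cd79b at 0.89 ± 0.52 (adjusted p = 0.718). The B cell list summed to 74.5, 73.7, 75.5 and 20.4 TPM in ALPN-202 tumors, 40.8, 58.5, 35.4 and 22.2 in anti-PD-L1 tumors and 15.2, 58.0, 26.6 and 26.2 in Fc control tumors, most of it Ighm, the heavy chain of IgM. ALPN-202 tumors 1 to 3 were again the highest, whereas Ms4a1, a defining B cell marker, was at most 0.484 TPM in any tumor. With ALPN-202 tumor 4 and Fc control tumor 1 left out, Cd22 passed over Fc control (1.75, edgeR adjusted p = 0.0276) and no mature or plasmacytoid dendritic cell marker did.

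T cell markers, 10 of 10 of which were positive over Fc control (median 1.84), were at 101 to 324 summed TPM in ALPN-202 tumors, 31.9 to 120 in anti-PD-L1 tumors and 44.5 to 81.8 in Fc control tumors. Ifng, the inducer of CIITA, had 32.7, 17.3, 14.9 and 21.7 TPM in ALPN-202 tumors, 14.4, 11.6, 7.78 and 9.31 in anti-PD-L1 tumors and 11.6, 10.7, 4.80 and 13.0 in Fc control tumors. On TPM all 4 ALPN-202 tumors lay above every other tumor for Ifng, where 1.04% of all genes lay wholly above Fc control and 1.38% above anti-PD-L1. The margin was thin, at 14.9 TPM in ALPN-202 tumor 3 against 14.4 in anti-PD-L1 tumor 1, and Ifng had 26 to 133 counts per tumor. Short transcripts were high and long ones low in ALPN-202 tumor 4, and the part of length in its rank was not tested. MHC class I genes, 8 of 10 of which were positive over Fc control, had a median of 0.26, with none at an unadjusted p under 0.05. Without ALPN-202 tumor 4 and Fc control tumor 1, 8 of 10 T cell markers were called over Fc control, where 5.47% of all genes were called higher. Of the class I genes only Nlrc5, their coactivator, was called then, and Ifng was not (1.20, edgeR adjusted p = 0.120).

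**Figure D5:**
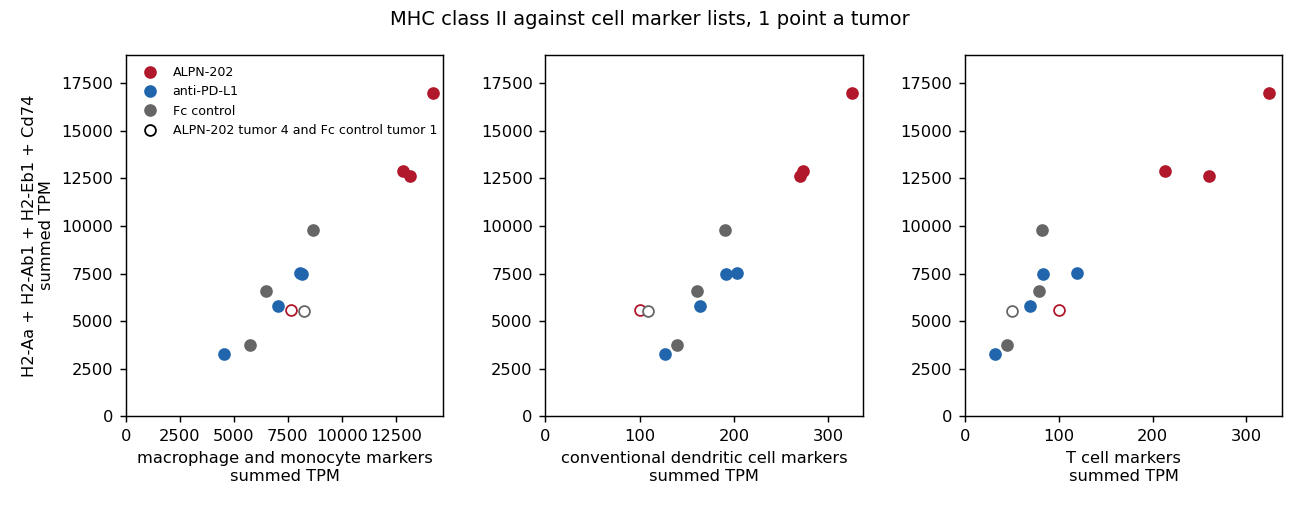
Summed TPM of H2-Aa, H2-Ab1, H2-Eb1 and Cd74 against summed TPM of macrophage and monocyte, conventional dendritic cell and T cell markers, 1 point a tumor, for ALPN-202, anti-PD-L1 and Fc control. ALPN-202 tumors 1 to 3, with 12649 to 16974 TPM of class II, lie at the upper right in all 3 panels, and ALPN-202 tumor 4 (open circle) with 5607 lies among the other groups.

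The difference in class II was also taken relative to the markers of macrophages and monocytes, conventional dendritic cells and B cells, by subtracting the mean of each list in each tumor, as a description with no test. The mean of H2-Aa, H2-Ab1, H2-Eb1 and Cd74 on log2(CPM + 1) was 1.04 higher in ALPN-202 than in Fc control tumors. After the macrophage and monocyte markers were subtracted it was 2.69 ± 0.21 in ALPN-202 tumors and 2.43 ± 0.49 in Fc control tumors (SD, n = 4 each), a difference of 0.26 that lay within the spread of the Fc control tumors. The difference was 0.24 after the dendritic cell markers and close to 0 after the B cell markers. Only 3 of the 11 B cell markers, Cd22, Ighm and Cd79b, entered that profile, and Cd22 had as few as 7 counts in a tumor. Without Fc control tumor 3, which had the lowest value of its group after each list, the difference was 0.03 after the macrophage markers, 0.01 after the dendritic cell markers and −0.22 after the B cell markers. It was 0.18, 0.36 and 0.06 in the same order of lists without ALPN-202 tumor 4 and Fc control tumor 1.

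Against anti-PD-L1 tumors the difference of 1.30 became 0.39 after the macrophage markers (2.69 ± 0.21 with ALPN-202 and 2.31 ± 0.24 with anti-PD-L1), 0.54 after the dendritic cell markers and 0.50 after the B cell markers. With any 1 tumor left out these were 0.29 to 0.45, 0.37 to 0.67 and 0.38 to 0.63. For Ciita the difference over Fc control of 1.05 became 0.27, 0.25 and 0.01 after the same 3 lists, and that over anti-PD-L1 of 0.71 became −0.20, −0.04 and −0.09. Without ALPN-202 tumor 4 and Fc control tumor 1 the values for Ciita over anti-PD-L1 were 0.13, 0.43 and 0.23, so their sign turned. Those for Ciita over Fc control were then 0.27, 0.45 and 0.14. With any 1 tumor left out, Ciita over Fc control was −0.07 to 0.60, −0.02 to 0.72 and −0.17 to 0.32, so its sign turned as well. The part of cell numbers in these differences was not tested.

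The genes whose pattern over the 12 tumors was most like that of the classical chains and Cd74 were sought among 12086 genes, by the root mean square difference of centred log2(CPM + 1). A gene with no variation would lie 0.763 away. The nearest were Lilrb3 (0.143), Klrb1b (0.191), Ccl3 (0.193), Cd72 (0.196), Pstpip1 (0.204), Arhgdib (0.209), Pla2g7 (0.226) and Plbd1 (0.228). Lilrb3 is an inhibitory receptor of myeloid cells, Ccl3 a chemokine and Cd72 a receptor of B cells and macrophages. Lilrb3 had means of 57.2 TPM in ALPN-202 tumors, 27.5 in anti-PD-L1 tumors and 28.3 in Fc control tumors. Of the 6 of the 10 genes that do not enter that profile, H2-DMa lay nearest to it (0.274), and Ciita (0.690) and H2-Oa (0.695) lay farthest. Nearest to Ciita were Abcc3 (0.161), Fam49a (0.181), Nlrp1c-ps (0.193), Pik3ap1 (0.205) and Prss35 (0.214). Ciita's transcript is longer than those of the classical chains, 6208 exonic bases in GENCODE against 1987 for H2-Aa. In ALPN-202 tumor 4, where long transcripts were low, log2(CPM + 1) differed from the median of the other ALPN-202 tumors by −2.09 for Ciita, −0.95 for H2-Oa, −0.91 for Cd74 and −0.14 to 1.02 for the other 7 genes. In Fc control tumor 1 it differed from the other Fc control tumors by −0.56 for Ciita, −0.29 for Cd74 and 0.27 to 1.32 for the other 8. The length of a transcript relative to the median gene, taken from counts and TPM, was 1.79 for Ciita, 0.48 for Cd74 and 0.42 for H2-Oa. For the other 7 genes it was 0.38 to 0.91. The part of length in these differences was not tested.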

How the data were processed

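Libraries of 12 tumors were made with SMART-Seq v4 and NexteraXT and sequenced as single 58-base reads. The raw count table and the TPM table were deposited by the authors, who aligned reads and counted them per gene. Tools named in the submitters' processing notes were SAMtools 1.2, FastQC 0.11.3, HTSeq 0.4.1 and TopHat 1.4.1, with build NCBIM37, while the paper's methods name another aligner. TPM values, as deposited, sum to 999019 to 999706 per tumor. Counts were scaled by TMM, filtered with filterByExpr (minimum count 10, minimum total 15) and fitted for all 12 tumors with the edgeR 4.0.16 quasi-likelihood test (R 4.3.3), adjusted by Benjamini-Hochberg over 14142 genes at 0.05. Ciita had 2 lines in the count table, of which the first (37 to 573 counts) was used and the second held 0 to 6. Single values were compared by exact two-sided permutation tests (NumPy 2.4.6). Alternatives were DESeq2 1.42.0, limma 3.58.1 with and without weights, other scalings and filters, TPM with pseudocounts of 1 and 0.1, a replicate block and left-out tumors. Scripts were tested on simulated data. The genes, lists and left-out tumors were chosen with earlier results of these data known. The text names all 10 genes, pathway genes with an unadjusted p under 0.05 or the smallest p in a list (1 such gene is not reported here), and the genes nearest in pattern. Clec9a, Xcr1, Zbtb46, Ifng, Rfx5, Psmb9, the B cell, mature and plasmacytoid dendritic cell and epithelial markers and Nlrc5 were named after their values were seen. The values of marker lists, pathway genes and subtracted profiles without single tumors were added after seeing the data.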

Additional observations from a re-analysis of the deposited data

How the results depend on the processing

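The median of the 10 genes kept its sign in all 26 alternatives, at 0.60 to 1.02 in ALPN-202 over Fc control, −0.51 to −0.10 in anti-PD-L1 over Fc control and 0.65 to 1.16 in ALPN-202 over anti-PD-L1. The number of genes called was 0 in edgeR for ALPN-202 over Fc control, against 232 with DESeq2, 2153 with voom quality weights, 380 without the 4 adipocyte-rich tumors and 1074 without the 2 tumors with a length trend, of which 1 of the 10 with quality weights and 1 without the 2 tumors. It was 0 to 428 genes and 0 to 1 of the 10 with 1 tumor left out, the 1 being Ciita without ALPN-202 tumor 4. For ALPN-202 over anti-PD-L1 it was 0, against 202 with DESeq2, 1989 with quality weights and 748 without the 2 tumors, of which 1, 7 and 1 of the 10. On CPM in place of TPM, exact permutation p-values under 0.05 were found for 4 of the 10 over Fc control and 5 over anti-PD-L1, against 0 and 2 on TPM. With 4 tumors against 4 such a p is reached only where the groups do not overlap, so the shares of all genes given for non-overlap apply to these counts. The cause of these differences was not tested.

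Signs turned for H2-DMb2 in ALPN-202 over Fc control with library size only (−0.016), quality weights (−0.036), TPM with pseudocounts of 1 (−0.0135) and 0.1 (−0.0134) and without the adipocyte-rich tumors (−0.24, with H2-Ob at −0.0093), and it was −0.14 to 0.36 with 1 tumor left out. In anti-PD-L1 over Fc control, H2-Oa turned to 0.0084 (library size only), 0.19 (quality weights), 0.061 and 0.077 (TPM), 0.075 (without the 2 tumors) and 0.22 (without the adipocyte-rich tumors), H2-Ob to 0.0178 and 0.0467 (TPM) and 0.27 (without the 2 tumors), Cd74 to 0.0276 and 0.0277 (TPM) and 0.0198 (without the adipocyte-rich tumors), and Ciita to −0.18 (quality weights). With 1 tumor left out, H2-Oa was −0.37 to 0.18, H2-Ob −0.69 to 0.25, Cd74 −0.38 to 0.10 and H2-Eb1 −0.52 to 0.021. With the replicate number as a block the medians were 0.80, −0.28 and 0.97, with 0 of the 10 called. Same-numbered tumors correlated above 0.1 in 5 of 12 pairs and 1 of 12 tumors correlated best with its own number. Fc control tumor 1 and ALPN-202 tumor 4, which differ in number, correlated at 0.79. Library traits thus enter these correlations, which cannot decide whether same-numbered tumors share more than a number.

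The lowest depth, 3988266 counts, fell on ALPN-202 tumor 4. Counts of H2-Oa and H2-Ob of 2 to 39 limit what those genes can show, and 4 tumors a group limit the rest.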
